A study of Mus musculus with 4 samples.

Results

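The genes described here are 45 regulators of the actin cytoskeleton: the actins themselves, the proteins that bind actin monomers, cut, cap, nucleate, lengthen and crosslink filaments, the small GTPases and kinases that signal to them, and the proteins that link filaments to the membrane. They were picked by gene symbol from the 29224 genes of the count table, and all 45 had a row. Actin monomers assemble into polar filaments that grow mainly at the barbed end, while cofilin and its relatives take older filaments apart and profilin and the β-thymosins hold the monomer pool. Branched networks are started by the Arp2/3 complex after WAVE or N-WASP proteins switch it on, and straight filaments by formins. In the nervous system this machinery shapes growth cones, dendritic spines and the fine processes of astrocytes.

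RNA was sequenced from cells of the cerebral cortex of postnatal day 5 (P5) mice, isolated with anti-GLAST (ACSA-1) magnetic beads, which bind an astrocyte glutamate transporter. The comparison asked how loss of Ezh2, the histone methyltransferase of Polycomb repressive complex 2, altered the transcripts of these cells. Control animals carried the floxed Ezh2 alleles alone (Ezh2 f/f, 2 libraries). Knockout animals carried the same floxed alleles together with an Aldh1l1-driven Cre (Ezh2 cKO, 2 libraries), so deletion was limited to cells in which the Aldh1l1 promoter was or had been active. Nothing in the labels says whether the 2 libraries of a group came from separate animals or from pools, and p-values therefore measure the spread between these libraries, which may be technical.

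Total counts per library were between 16273308 and 17522152. Counts of Ezh2 itself were 434 and 327 in the controls and 211 and 164 in the knockouts (log2 fold change -1.11 ± 0.16, SE). Markers of several cell types differed between the groups. The summed level of 12 astrocyte markers was 193 and 211 FPKM (counts scaled to gene length and library size) in Ezh2 f/f and 769 and 686 FPKM in Ezh2 cKO, and 10 of the 12 were higher. All 12 oligodendrocyte lineage markers and 11 of 12 microglia markers were also higher, with summed levels of 70.4 to 72.2 against 297 to 338 FPKM and 66.3 to 67.1 against 164 to 191 FPKM. Of 12 neuron markers 9 were higher and 1 was lower, and their median log2 fold change was 0.95. Their summed level, 2297 to 2377 FPKM against 2389 to 2392 FPKM, was above that of the astrocyte list in every library. Most of that sum was Tubb3, the lower marker, at 1859 and 1897 FPKM in Ezh2 f/f and 1223 and 1207 FPKM in Ezh2 cKO. The near-equal sums therefore hide the rise of the others. Of 11 markers of immature neurons and progenitors, 9 were lower, and their summed level was 195 to 199 FPKM against 65.8 to 70.7 FPKM. Of 12 endothelial markers 3 were higher and 2 lower, and of 9 mural cell markers tested 3 were higher and 1 lower. No listed marker was at 0 in all libraries. The part of these cell types in the results below was not tested, and in bulk RNA fewer cells of a type and less RNA per cell cannot be told apart.

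The actin genes were measured deeply and most of them changed little. All 45 passed the filter on low counts, with between 69 and 44365 counts per gene and library, and 44 of them had a mean of at least 20 CPM (counts scaled to library size, with TMM factors). At an adjusted p under 0.05 (edgeR's quasi-likelihood test, Benjamini-Hochberg adjustment over 16793 genes) 15 were higher in Ezh2 cKO and 18 were lower, 33.3% and 40.0% of the 45, while 34.7% of all genes tested were higher and 33.6% were lower. In either direction 73.3% of the 45 and 68.4% of all genes passed. In 38 genes (84.4%) the libraries of the groups did not overlap in CPM, beside 84.3% of all genes tested. These shares are near the background, so the number of calls is no result about actin genes.

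Their fold changes were small. A log2 fold change between -0.5 and 0.5 was found for 31 of the 45 genes (68.9%), against 37.8% of all genes tested. Only Actn2 and Pak3 were at least 2-fold higher (4.44% of the 45, against 19% of all genes tested), and no gene of the 45 was at least 2-fold lower, against 14% of all genes. Since highly counted genes differ from the rest, the same shares were taken over the 7873 genes with a mean of at least 20 CPM, a limit set after the values were seen. There 33.1% were higher and 45.1% lower (78.2% in either direction), 11.1% were at least 2-fold higher and 13% at least 2-fold lower, 89.2% did not overlap, and 43.7% lay between -0.5 and 0.5. The median log2 fold change was -0.12 over the 45 genes, -0.14 over the genes of at least 20 CPM and 0.015 over all genes tested, and the median size without its sign was 0.33, 0.58 and 0.69. Over the list as a whole, transcripts of the 45 genes took 1.78% and 1.83% of all counts in the controls and 1.51% and 1.54% in the knockouts. Of its most counted genes, the actins, Tmsb10, Cfl1, Dbn1 and Marcksl1 fell, and Tmsb4x did not pass.

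**Figure D1:**
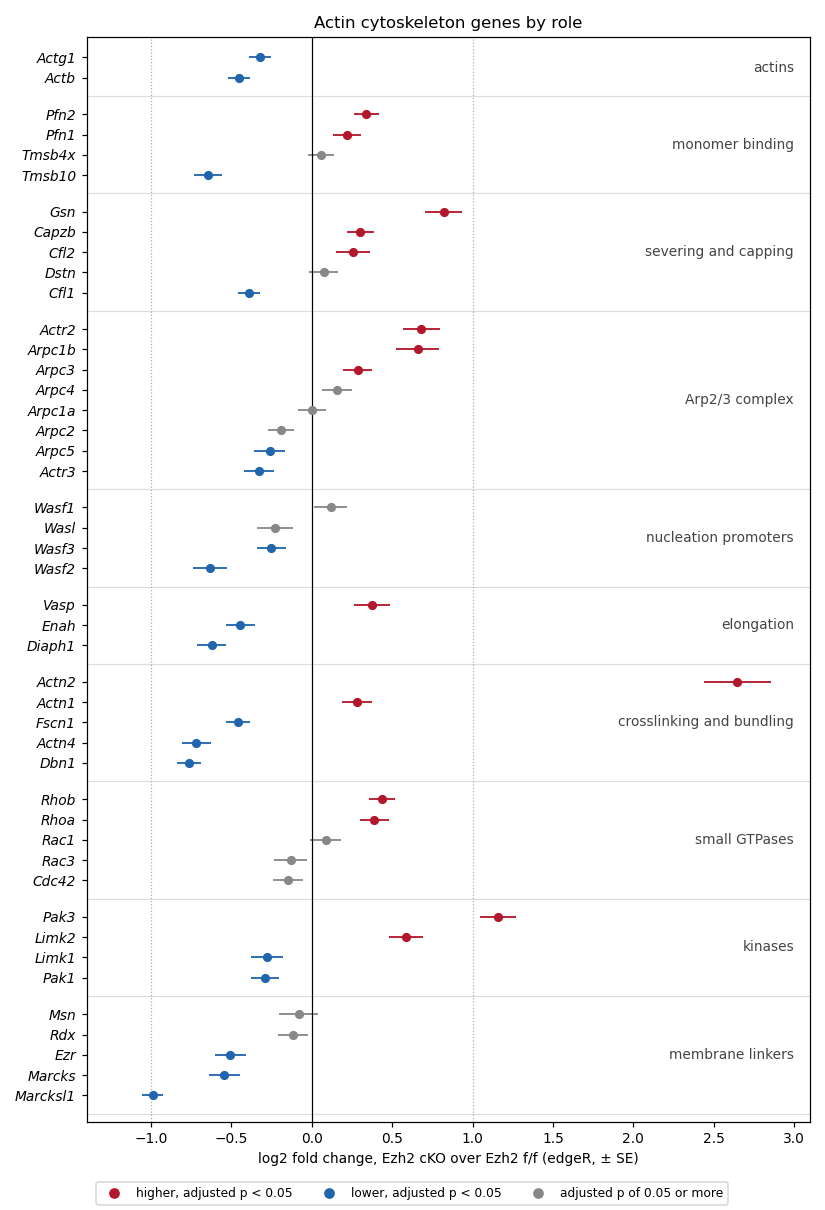
Log2 fold change of each of the 45 genes (Ezh2 cKO over Ezh2 f/f, 2 libraries per group), grouped by role, with bars of ± 1 SE from edgeR and dotted lines at 2-fold. Most points lie between -0.5 and 0.5, Actn2 stands at 2.65 and Pak3 at 1.16, and Marcksl1 is the lowest at -0.99.

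Both actin genes fell. Actb encodes β-actin and Actg1 γ-actin, the cytoplasmic actins of non-muscle cells. Actb was at 1850 and 1829 CPM in Ezh2 f/f and at 1301 and 1383 CPM in Ezh2 cKO (log2 fold change -0.46 ± 0.07, adjusted p = 4.42e-05). Actg1 was at 1590 and 1584 CPM against 1239 and 1295 CPM (-0.32 ± 0.07, adjusted p = 0.000781). For both, each Ezh2 cKO library lay under each Ezh2 f/f library. Per length, β-actin transcripts were the more abundant in every library, with an Actb to Actg1 ratio of FPKM of 1.15 and 1.15 in Ezh2 f/f against 1.04 and 1.06 in Ezh2 cKO. The deposited tables give Actb a position on chromosome 5, minus strand, from 142888870 to 142892509; these tables name no genome build, and positions from them are not on the build of the promoter windows given here.

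Actin promoters are known targets of serum response factor, which binds a motif called the CArG box, and the Actg1 promoter is shown because it held that motif. RefSeq promoter windows (GRCm38.p6, 250 bases before to 50 bases after the transcript start) were matched for 41 of the 45 genes, in 53 windows, and not for Actb, Diaph1, Marcks and Rac1. Searched on both strands, the CArG box was present in 2 of the 41 genes, Actg1 and Arpc4 (4.88%), and in 488 of 27018 genes with a window (1.81%). The Actg1 window lies at chr11:120348446-120348745 on the minus strand, with the CArG box in capitals beginning at base -90 from the start.
Actg1: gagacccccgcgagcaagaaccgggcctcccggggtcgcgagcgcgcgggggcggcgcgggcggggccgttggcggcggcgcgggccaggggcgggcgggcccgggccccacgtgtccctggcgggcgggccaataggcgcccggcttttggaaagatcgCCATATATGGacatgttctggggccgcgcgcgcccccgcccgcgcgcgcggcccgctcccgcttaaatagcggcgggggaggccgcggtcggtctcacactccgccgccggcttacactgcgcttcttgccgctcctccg
A match of letters describes the window only. The windows of the 41 genes were rich in CG dinucleotides, the substrate of DNA methylation, with a median of 22 per window against 7 over all windows. All windows include those of genes not among the 16793 tested here. No median over tested genes was taken, so this is no result about actin genes.

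Among the proteins that bind actin monomers, the profilins rose and thymosin β10 fell. Profilins load monomers onto growing barbed ends, and the β-thymosins Tmsb4x and Tmsb10 sequester monomers. Pfn2, the profilin prominent in brain, was at 426 and 426 CPM in Ezh2 f/f and at 535 and 542 CPM in Ezh2 cKO (log2 fold change 0.34 ± 0.08, adjusted p = 0.0015). Pfn1 was at 194 and 195 CPM against 235 and 218 CPM (0.22 ± 0.09, adjusted p = 0.0356). The Pfn1 call was lost without Ezh2 cKO replicate 1 and without either Ezh2 f/f library, and its adjusted p reached 0.212 over the 12 alternatives. Tmsb10, among the most abundant transcripts of these libraries, was at 2082 and 2469 CPM in Ezh2 f/f against 1551 and 1362 CPM in Ezh2 cKO (-0.64 ± 0.09, adjusted p = 1.75e-05). Its relative Tmsb4x was at 1026 and 1192 CPM against 1150 and 1156 CPM, and these libraries overlapped (0.06 ± 0.08, adjusted p = 0.549). The Tmsb4x to Tmsb10 ratio of FPKM was accordingly 0.459 and 0.449 in Ezh2 f/f against 0.690 and 0.790 in Ezh2 cKO.

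Of the genes whose products sever or cap filaments, the abundant cofilin fell and gelsolin, capping protein β and muscle cofilin were higher. Cfl1, non-muscle cofilin, was at 1470 and 1544 CPM in Ezh2 f/f and at 1180 and 1119 CPM in Ezh2 cKO (log2 fold change -0.39 ± 0.07, adjusted p = 0.000232). Cfl2, the cofilin prominent in muscle, was at 59.7 and 62.6 CPM against 65.7 and 80.4 CPM (0.26 ± 0.11, adjusted p = 0.0477). The Cfl2 call was lost in 10 of 12 alternatives, among them without Ezh2 cKO replicate 2 (adjusted p = 0.480, the highest of them) and without either Ezh2 f/f library. Dstn, which encodes destrin, a cofilin relative, was at 177 and 180 CPM against 181 and 194 CPM (0.07 ± 0.09, adjusted p = 0.472). The Cfl1 to Cfl2 ratio of FPKM was 28.3 in both Ezh2 f/f libraries and 20.6 and 16.0 in Ezh2 cKO, so Cfl1 remained the main cofilin transcript per length everywhere. Gsn, which encodes the calcium-dependent severing protein gelsolin, a gene of oligodendrocytes as well as astrocytes, was at 22.0 and 20.1 CPM against 36.9 and 37.4 CPM, 1.77-fold higher (0.82 ± 0.11, adjusted p = 2.03e-05). It was higher in the libraries in which all 12 oligodendrocyte lineage markers were higher, and their part was not tested. Capzb, a subunit of the barbed end capping protein, was at 224 and 240 CPM against 287 and 286 CPM (0.30 ± 0.09, adjusted p = 0.006).

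The subunits of the Arp2/3 complex did not move together. The complex holds the actin-related proteins Arp2 (Actr2) and Arp3 (Actr3), on which a branch starts, and 5 supporting subunits encoded by the Arpc genes. Of the 8 genes on the list, 3 were higher (37.5%), 2 were lower (25%) and 3 did not pass. Over all genes tested 34.7% were higher and 33.6% lower, so this mix is no result about the complex. Actr2 was at 110 and 90.7 CPM in Ezh2 f/f and at 147 and 175 CPM in Ezh2 cKO (log2 fold change 0.68 ± 0.11, adjusted p = 0.000105). Actr3 was at 201 and 194 CPM against 147 and 167 CPM (-0.33 ± 0.09, adjusted p = 0.00613). The Actr2 to Actr3 ratio of FPKM, a pair chosen after the values were seen, was 0.487 and 0.416 in Ezh2 f/f against 0.889 and 0.930 in Ezh2 cKO, and the groups did not overlap.

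Among the supporting subunits, Arpc1b rose from 25.7 and 20.8 CPM to 39.7 and 33.8 CPM (log2 fold change 0.66 ± 0.13, adjusted p = 0.000493), while its paralogue Arpc1a was at 159 and 159 CPM against 160 and 158 CPM (0.00 ± 0.09, adjusted p = 0.997). Arpc1b is the form prominent in blood and immune cells, microglia included. The Arpc1a to Arpc1b ratio of FPKM was 12.3 and 15.2 in Ezh2 f/f against 8.04 and 9.30 in Ezh2 cKO. Arpc3 rose from 156 and 163 CPM to 203 and 186 CPM (0.29 ± 0.09, adjusted p = 0.0115), and Arpc5 fell from 270 and 240 CPM to 200 and 225 CPM (-0.26 ± 0.10, adjusted p = 0.0248). These are modest changes, and none of the 3 calls on Actr3, Arpc3 and Arpc5 held without Ezh2 cKO replicate 1 (adjusted p = 0.0988, 0.118 and 0.227). Arpc5 was also not called without Ezh2 f/f replicate 1, and its adjusted p reached 0.336 over the alternatives, that of Actr3 0.141 and that of Arpc3 0.118. Arpc2 (306 and 308 CPM against 266 and 272 CPM, -0.19 ± 0.08) missed the threshold at an adjusted p of 0.0505 and passed it in DESeq2 at 0.0295. Arpc4 was at 125 and 142 CPM against 149 and 148 CPM (0.16 ± 0.09, adjusted p = 0.158).

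Overlapping genes make some of these counts uncertain, since the use of strand in counting is not stated. Arpc4 shares its strand and position with Ttll3, which fell from 1469 and 1276 counts to 250 and 222 counts. Arpc1b overlaps Pdap1 on the opposite strand, which fell from 4842 and 4605 counts to 2995 and 2820 counts, the other way from Arpc1b. Cfl1, Rhoa and Rac1 also overlap counted genes on the opposite strand (Snx32, Tcta and Daglb), and Arpc3 a less counted gene on its own strand.

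**Figure D2:**
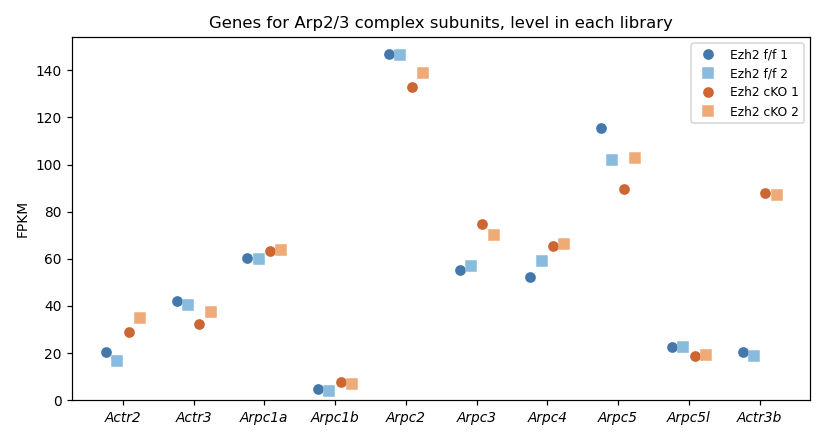
FPKM of genes for Arp2/3 subunits in each of the 4 libraries (blue for Ezh2 f/f, orange for Ezh2 cKO), with the paralogues Arpc5l and Actr3b of the wider list at the right. The Actr2 points of Ezh2 cKO lie above those of Ezh2 f/f and the Actr3 points below them, and the mean of Actr3b is 19.5 FPKM in Ezh2 f/f and 87.5 FPKM in Ezh2 cKO.

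Transcripts of the proteins that switch on Arp2/3 were lower or did not pass. Wasf1, Wasf2 and Wasf3 encode the WAVE proteins, which act downstream of Rac, and Wasl encodes N-WASP, which acts downstream of Cdc42. Wasf2, the broadly expressed WAVE gene, was at 43.4 and 41.1 CPM in Ezh2 f/f and at 26.6 and 28.0 CPM in Ezh2 cKO (log2 fold change -0.63 ± 0.11, adjusted p = 0.000115). Wasf3 was at 142 and 133 CPM against 115 and 116 CPM (-0.25 ± 0.09, adjusted p = 0.0227). Its call was lost in 6 of 12 alternatives, without Ezh2 cKO replicate 1, Ezh2 cKO replicate 2 and Ezh2 f/f replicate 1 and in the 3 limma fits, with adjusted p up to 0.178. Wasf1, prominent in neurons, was at 208 and 174 CPM against 195 and 220 CPM, and the groups overlapped (0.12 ± 0.10, adjusted p = 0.32). Per length the Wasf1 to Wasf2 ratio rose from 10.5 and 9.29 to 16.1 and 17.2, and the Wasf3 to Wasf2 ratio from 3.82 and 3.78 to 5.03 and 4.85. Wasl was at 37.4 and 34.8 CPM against 28.9 and 32.8 CPM (-0.23 ± 0.11, adjusted p = 0.0873). Of 17 nucleation promoter genes in the wider list below, 7 were higher (41.2%) and 5 lower (29.4%), beside 34.7% and 33.6% of all genes tested.

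Genes for filament elongation split by direction. Diaph1, a formin that works downstream of RhoA, was at 71.4 and 70.5 CPM in Ezh2 f/f and at 44.5 and 47.7 CPM in Ezh2 cKO (log2 fold change -0.62 ± 0.09, adjusted p = 3.32e-05). Enah, also called Mena, and Vasp belong to the Ena/VASP family, which shields barbed ends from capping. Enah fell from 143 and 136 CPM to 104 and 101 CPM (-0.44 ± 0.09, adjusted p = 0.000568). Vasp rose from 30.5 and 26.1 CPM to 36.9 and 36.4 CPM (0.37 ± 0.11, adjusted p = 0.00961). The Vasp call was lost without Ezh2 cKO replicate 1, Ezh2 cKO replicate 2 or Ezh2 f/f replicate 2, at adjusted p of 0.0747, 0.0633 and 0.0940, the last the highest over the alternatives. The Enah to Vasp ratio of FPKM was 0.571 and 0.635 in Ezh2 f/f against 0.343 and 0.338 in Ezh2 cKO.

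The crosslinking and bundling genes held the largest change of the 45. Actn2, the α-actinin of cardiac and skeletal muscle that is also found in dendritic spines of neurons, had 83 and 69 counts in the controls and 402 and 612 in the knockouts. That was 4.86 and 4.39 CPM against 22.8 and 35.3 CPM, 6.27-fold higher (log2 fold change 2.65 ± 0.21, adjusted p = 8e-08). Its Ezh2 cKO libraries lay far above both controls but differed from each other as well, and it remained a low transcript per length, at 1.18 FPKM in Ezh2 f/f and 7.89 FPKM in Ezh2 cKO on average. Over the alternatives its log2 fold change was between 2.00 and 2.93. Actn2 was higher in libraries in which 9 of 12 neuron markers were higher and 1 lower. The log2 fold changes of those markers ran from -0.71 to 3.44, and the part of neurons was not tested. The deposited tables place Actn2 on the minus strand of chromosome 13, from 12284312 to 12355641. Its RefSeq promoter window is shown because no gene of the 45 changed more, with its 19 CG dinucleotides in capitals (GRCm38.p6, chr13:12340683-12340982, minus strand).
Actn2: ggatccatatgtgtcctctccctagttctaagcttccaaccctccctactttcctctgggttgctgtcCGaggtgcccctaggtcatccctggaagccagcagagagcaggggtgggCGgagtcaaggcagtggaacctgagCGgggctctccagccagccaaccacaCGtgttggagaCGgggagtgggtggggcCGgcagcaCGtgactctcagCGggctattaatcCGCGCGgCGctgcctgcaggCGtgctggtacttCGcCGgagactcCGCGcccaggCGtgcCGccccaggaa
The 19 CG dinucleotides compare with the medians of 22 over windows of the actin genes and 7 over all windows.

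The non-muscle α-actinins moved in opposite directions. Actn4 fell from 195 and 177 CPM to 115 and 111 CPM (log2 fold change -0.72 ± 0.09, adjusted p = 9.06e-06), and Actn1 rose from 61.8 and 59.1 CPM to 72.2 and 74.7 CPM (0.28 ± 0.09, adjusted p = 0.0145). The Actn1 to Actn4 ratio of FPKM was 0.352 and 0.370 in Ezh2 f/f against 0.695 and 0.747 in Ezh2 cKO, so Actn4 was still the more abundant per length in all 4 libraries. The Actn1 call was lost without Ezh2 cKO replicate 1 (adjusted p = 0.0520), without Ezh2 cKO replicate 2 (0.0990, the highest over the alternatives) and without Ezh2 f/f replicate 2 (0.0968). Fscn1 encodes fascin, which packs filaments into the tight bundles of filopodia, and it fell from 865 and 904 CPM to 656 and 633 CPM (-0.46 ± 0.07, adjusted p = 9.12e-05). Dbn1 encodes drebrin, a filament-binding protein of growth cones and spines, and it fell from 970 and 961 CPM to 580 and 559 CPM (-0.76 ± 0.07, adjusted p = 6.27e-07).

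Among the small GTPases, Rhoa and Rhob rose and no Rac or Cdc42 change passed. RhoA and RhoB act on formins, Rac proteins on the WAVE complex and Cdc42 on N-WASP. Rhob was at 238 and 234 CPM in Ezh2 f/f and at 319 and 320 CPM in Ezh2 cKO (log2 fold change 0.44 ± 0.08, adjusted p = 0.000319). Rhoa was at 102 and 100 CPM against 131 and 133 CPM (0.39 ± 0.09, adjusted p = 0.00145). Their FPKM ratio moved little, with Rhoa to Rhob at 0.134 and 0.134 against 0.129 and 0.130. Rac1, Rac3 and Cdc42 each overlapped between the groups. Cdc42 was at 484 and 555 CPM against 437 and 500 CPM (-0.15 ± 0.09, adjusted p = 0.17), Rac3 at 301 and 358 CPM against 320 and 282 CPM (-0.13 ± 0.10, adjusted p = 0.258), and Rac1 at 201 and 174 CPM against 191 and 208 CPM (0.09 ± 0.10, adjusted p = 0.432). Without Ezh2 f/f replicate 1, Cdc42 and Rac3 were called lower, at adjusted p of 0.00948 and 0.0178. Per length Rac3 exceeded Rac1 in every library, with a Rac1 to Rac3 ratio between 0.140 and 0.212.

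The kinase paralogues moved apart. LIM kinases phosphorylate and so switch off cofilin, and the p21-activated kinases (PAKs) act between Rac or Cdc42 and the LIM kinases. Pak3, a PAK of the nervous system, was at 32.8 and 36.3 CPM in Ezh2 f/f and at 69.4 and 84.9 CPM in Ezh2 cKO, 2.23-fold higher (log2 fold change 1.16 ± 0.11, adjusted p = 5.24e-07). In these libraries 9 of 12 neuron markers were higher and 1 lower, and their part was not tested. Pak1 fell from 217 and 239 CPM to 183 and 189 CPM (-0.29 ± 0.09, adjusted p = 0.00986). The groups were apart for both genes, and the Pak1 to Pak3 ratio of FPKM went from 16.0 and 15.9 to 6.38 and 5.40, the largest shift of the 17 paralogue pairs compared (-1.44 on the log2 scale). Limk2 rose from 143 and 176 CPM to 253 and 225 CPM (0.58 ± 0.11, adjusted p = 0.000239), whereas Limk1 fell from 114 and 126 CPM to 104 and 93.8 CPM (-0.28 ± 0.10, adjusted p = 0.0217). The Limk1 to Limk2 ratio was 0.675 and 0.611 in Ezh2 f/f against 0.350 and 0.355 in Ezh2 cKO. The falls of Pak1 and Limk1 were the less secure calls. That of Pak1 was lost without Ezh2 cKO replicate 1 (adjusted p = 0.0838) and in the 3 limma fits (up to 0.129), and that of Limk1 without Ezh2 cKO replicate 2 (0.179, its highest), without Ezh2 f/f replicate 2 (0.0906) and in the 3 limma fits.

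The deposited tables place Pak3 on the plus strand of chromosome X, from 142301587 to 142580792. A promoter window of Pak3 is shown as it was the second gene of the list past 2-fold. Of its 3 RefSeq windows the one with the most CG dinucleotides was taken, which is also the most upstream. Its 14 CG dinucleotides are in capitals (GRCm38.p6, chrX:143518341-143518640, plus strand). The other windows held 3 and 4.
Pak3: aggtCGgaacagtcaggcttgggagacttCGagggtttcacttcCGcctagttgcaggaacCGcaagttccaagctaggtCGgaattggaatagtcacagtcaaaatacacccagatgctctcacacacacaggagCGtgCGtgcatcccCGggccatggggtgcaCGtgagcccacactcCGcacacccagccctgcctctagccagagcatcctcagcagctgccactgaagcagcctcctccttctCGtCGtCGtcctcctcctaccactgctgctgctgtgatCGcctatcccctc
Which of these starts the Pak3 counts came from was not tested, as the tables give 1 value per gene.

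Of the 5 genes of the 45 for proteins that tie filaments to the plasma membrane, 3 fell (60%) and 2 did not pass. Of 9 further membrane linker genes tested in the wider list below, 2 were higher (22.2%, Tln2 and Gap43) and 3 lower (33.3%). Over all genes tested 34.7% were higher and 33.6% lower. Marcksl1 and Marcks encode protein kinase C substrates that bind membrane phosphoinositides and actin. Marcksl1 was the most counted of the 45 genes in the controls, at 2598 and 2545 CPM, and stood at 1300 and 1290 CPM in Ezh2 cKO, and had the largest fall (log2 fold change -0.99 ± 0.07, adjusted p = 1.51e-08). Per length it went from 1554 to 830 FPKM on average, and in the tables it lies on the plus strand of chromosome 4, from 129407374 to 129409778. Marcks fell from 466 and 517 CPM to 308 and 367 CPM (-0.54 ± 0.10, adjusted p = 0.000193), a call lost in 1 limma fit (adjusted p = 0.0670, the highest over the alternatives). The Marcks to Marcksl1 ratio of FPKM was 0.0712 and 0.0806 in Ezh2 f/f against 0.0940 and 0.113 in Ezh2 cKO. Ezr, Rdx and Msn encode ezrin, radixin and moesin, of which ezrin is known from the fine peripheral processes of astrocytes. Ezr fell from 54.7 and 59.9 CPM to 41.1 and 39.5 CPM (-0.51 ± 0.10, adjusted p = 0.00035). Rdx was at 68.4 and 71.9 CPM against 63.9 and 65.3 CPM (-0.12 ± 0.09, adjusted p = 0.266), and Msn at 28.4 and 25.3 CPM against 26.4 and 24.4 CPM (-0.08 ± 0.12, adjusted p = 0.573). Ezr fell in libraries in which 10 of 12 astrocyte markers were higher and 9 of 11 markers of immature neurons and progenitors were lower. The part of these cell types was not tested.

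Ratios within families were compared to show which paralogues moved apart. Of the 17 pairs compared as a ratio of FPKM within a library, which does not depend on how libraries are scaled, 15 (88.2%) did not overlap between the groups. That share is near the 84.3% of all single genes tested and the 89.2% of those of at least 20 CPM, so it is no result about families. With 2 libraries per group an exact two-sided permutation test of a ratio cannot go below p = 0.333. After Pak1 to Pak3, the largest shifts on the log2 scale were those of Actn1 to Actn4 (1.00), Limk1 to Limk2 (-0.87), Enah to Vasp (-0.82), Wasf1 to Wasf2 (0.75) and Tmsb4x to Tmsb10 (0.70). The pairs that overlapped were Rac1 to Rac3 and Rdx to Msn. Ezr to Msn, at 3.70 and 4.55 against 2.99 and 3.11, and Cfl1 to Dstn, at 5.59 and 5.76 against 4.39 and 3.87, did not. The smallest shift among pairs that did not overlap was that of Rhoa to Rhob (-0.047), and Pfn1 to Pfn2 (-0.12) and Actb to Actg1 (-0.13) followed.

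**Figure D3:**
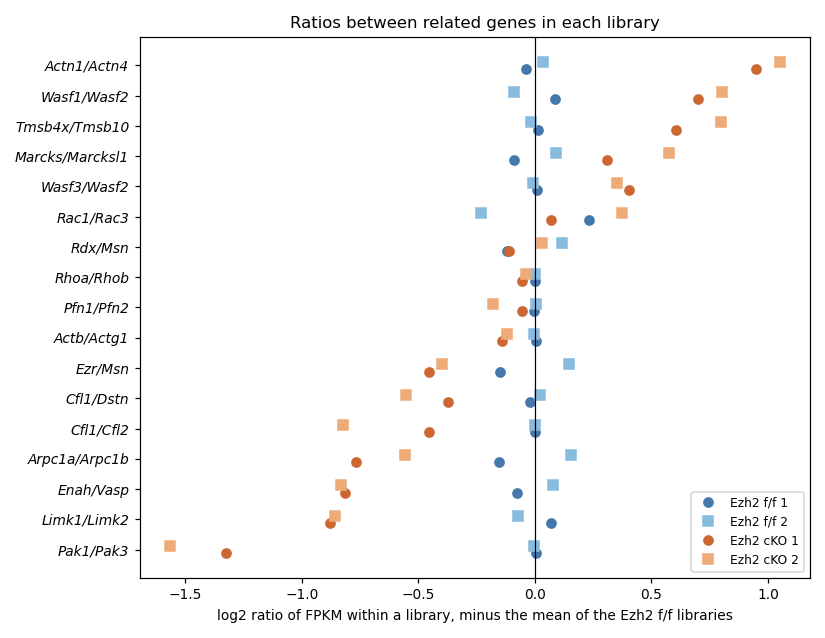
Log2 ratio of FPKM of 17 pairs of related genes in each of the 4 libraries (blue for Ezh2 f/f, orange for Ezh2 cKO), the first named gene over the other, less the mean of the Ezh2 f/f libraries. The points of the groups are apart in 15 pairs, most widely for Pak1 to Pak3, and interleave for Rac1 to Rac3 and Rdx to Msn.

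Other genes of the actin machinery, listed by role beside the 45, changed about as much as genes in general, with a median size of the log2 fold change of 0.68 without its sign, against 0.69 over all genes tested. Of 116 further names, 113 had a row and 112 were tested, of which 51 were higher (45.5%) and 35 lower (31.3%), beside 34.7% and 33.6% of all genes tested. Their log2 fold changes had a median of 0.12 and a range from -3.16 (Avil) to 3.65 (Cap2). At least 2-fold changes were found for 21 higher (18.8%) and 9 lower genes (8.04%), beside 19% and 14% of all genes. The higher genes with the smallest p in this list were Cap2, Actr3b, Tln2, Rnd1 and Sptbn1. Cap2, a cyclase-associated protein that recharges actin monomers, rose from 4.10 and 3.88 CPM to 46.5 and 54.3 CPM, 12.6-fold (3.65 ± 0.15, adjusted p = 2.16e-10).

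Actr3b, the Arp3 paralogue of brain, rose from 50.4 and 47.1 CPM to 210 and 203 CPM, 4.23-fold (log2 fold change 2.08 ± 0.09, adjusted p = 5.32e-10), while Actr3 fell. The Actr3 to Actr3b ratio of FPKM, chosen after the values were seen, went from 2.08 and 2.16 in Ezh2 f/f to 0.368 and 0.432 in Ezh2 cKO, so the order of the Arp3 genes per length was turned around. Tln2, a talin that joins integrins to actin, rose 3.09-fold, Rnd1, a small GTPase that opposes RhoA, 2.8-fold, and Sptbn1, a spectrin of the membrane skeleton, 2.6-fold. Libraries of the groups were apart for each of them, but that was a condition for naming them. It held for 84.3% of all genes tested.

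Among the lower genes, those with the smallest p were Fmnl3, Coro1c, Washc1, Spire2 and Ssh1. Fmnl3, a formin, fell from 127 and 125 CPM to 34.4 and 30.9 CPM (log2 fold change -1.95 ± 0.10, adjusted p = 1.53e-09). Ssh1, a slingshot phosphatase that reactivates cofilin and so works against the LIM kinases, fell from 64.1 and 70.6 CPM to 29.2 and 25.1 CPM (-1.31 ± 0.11, adjusted p = 1.13e-07). Coro1c, a coronin, changed by -1.24, Washc1, which activates Arp2/3 on endosomes, by -1.27, and Spire2, an actin nucleator, by -1.22. Of the 9 further kinases and phosphatases with a row, 7 were lower and 2 higher, where 33.6% and 34.7% of all genes tested and 45.1% and 33.1% of those of at least 20 CPM were. All 3 slingshot genes (Ssh1, Ssh2 and Ssh3) and the cofilin phosphatase gene Pdxp, named after their values were seen, were among the lower. The names Testk1 and Testk2, listed in the same role, were misspelt and matched no row.

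**Figure D4:**
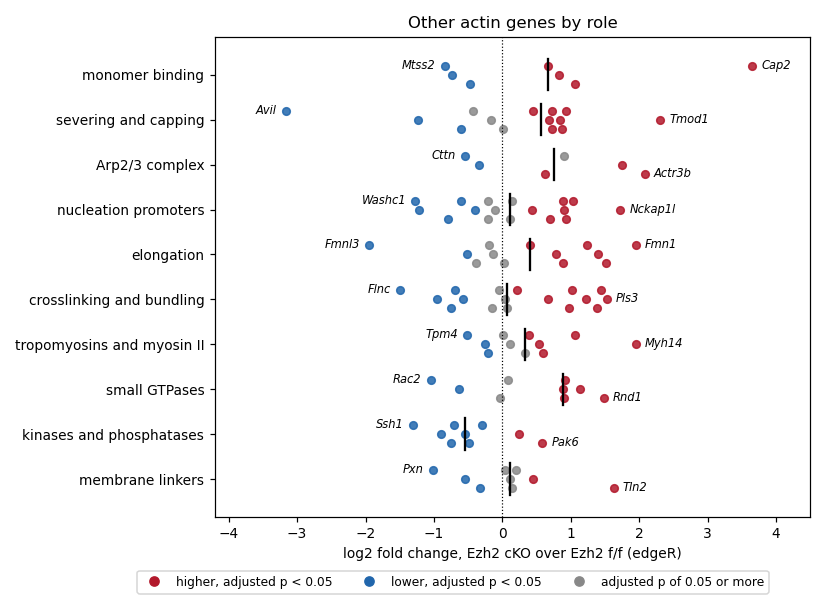
Log2 fold change (Ezh2 cKO over Ezh2 f/f, edgeR) of the 112 tested genes of the wider actin list, grouped by role, with the median of each group as a black bar and the outermost called genes named. Cap2 at 3.65 and Avil at -3.16 are the extremes, and kinases and phosphatases is the group whose median is lowest.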

How the data were processed

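The authors deposited, for 29224 genes, unnormalized counts per library and FPKM values. The tables' own comparison columns (means, ratios and p-values) were not used. The submitters' processing notes name TopHat2 2.0.12, Bowtie2 2.2.3, HTSeq 0.6.0 and mm9. None of the 45 genes has its deposited position in GENCODE M21 (GRCm38), the build of the tables is not named in them, and positions are printed as deposited. Deposited FPKM equalled counts divided by gene length and library total, with 1 length per gene, for 19461 of 19461 genes counted in all libraries (implied lengths whole within 0.01 bases and equal between libraries within a relative 1e-06), so reads shared by paralogues or overlapping genes could move both units.

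Genes were filtered with filterByExpr (16793 kept), scaled by TMM and tested with edgeR 4.0.16 (quasi-likelihood, group as the only term) in R 4.3.3. P-values were adjusted by Benjamini-Hochberg over all genes tested and called under 0.05, and the test was tried on simulated data. The common biological coefficient of variation was 0.0953. No library was a copy of another (chi-square per degree of freedom between replicates 8.92 and 5.68), and all 4 were kept. Alternatives used DESeq2 1.42.0, limma 3.58.1 on log2(FPKM + 1) or log2(FPKM + 0.1), other filters, a replicate block and each library left out. Python 3.11.15 was used for ratios and plots.

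The genes, lists and pairs were chosen with earlier results of these data known. All 45 genes are named; values in every library were set for genes changed at least 2-fold and for paralogue pairs, and others were added for completeness. In the wider list the 5 genes with the smallest p in each direction, at least 2-fold and without overlap, are named, and other genes of that list were named after their values were seen. Of its names, Testk1, Testk2 and Nherf1 matched no row. Testk1 and Testk2 were misspelt when the list was set, so the genes meant were not examined.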

Additional observations from a re-analysis of the deposited data

How the results depend on the processing

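All 33 called genes of the 45 kept their direction under the 12 alternatives and 21 also kept their call under each. Leaving out 1 library in turn, 23 kept it each time, and the numbers higher and lower ran from 11 to 14 and from 14 to 18, from 46 to 50 and 32 to 37 in the wider list, and the calls over all genes from 9477 to 11274. With DESeq2, Cfl2 and Pfn1 were lost, and in some limma fit 8 genes were, Actg1 among them (adjusted p = 0.0715). The limma fits used FPKM, which carry no TMM factors. They called 14 of the 45 genes higher and 12 or 13 lower, against 15 and 18 in the main fit. The cause was not tested.

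The median log2 fold change of the 45 genes, -0.12, was -0.084 with a mean of at least 50 counts, -0.033 with limma on log2(FPKM + 1) with or without the filter, -0.035 on log2(FPKM + 0.1), and between -0.15 and -0.039 with a library left out. That of the wider list, 0.12, was 0.19 with limma on log2(FPKM + 0.1), 0.18 with limma without the filter, and between 0.075 and 0.18 with a library left out. With the replicate number as a block, 14 of the 45 genes were higher and 18 lower (Cfl2 was lost), and 11394 genes were called in place of 11481. The numbers are shared by only 2 pairs (r = 0.130 between deviations of the replicate 1 libraries) and no source says what they mark.

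Sign changes concerned genes that were not called. Arpc1a was at -0.016 with DESeq2 and with its size factors, -1.4e-05 without the filter, and between -0.012 and 0.013 with a library left out (-0.0033, -0.012 and -0.0075 where it turned). Msn was at 0.0040, 0.0052 and 0.0040 in the limma fits (added 1, added 0.1, no filter) and between -0.17 and 0.0044 with a library left out. Over the fits that left out a library, the other values that turned sign ran from -0.048 to 0.15 for Tmsb4x, from -0.020 to 0.25 for Wasf1, from -0.030 to 0.20 for Rac1, from -0.011 to 0.45 for the shift of Rac1 to Rac3 and from -0.16 to 0.077 for that of Rdx to Msn (also 0.032). Arpc2 was gained with DESeq2, and Arpc4 and Wasl (without Ezh2 f/f replicate 2) and Cdc42, Rac3 and Wasf1 (without Ezh2 f/f replicate 1) with a library left out. DESeq2's size factors moved the median of all genes from 0.015 to -0.00087. Depth limited little here, as the lowest count of the 45 genes was 69.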

Other observations

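Actb and Gapdh, both common reference transcripts for quantitative PCR, moved in opposite directions in these libraries. Gapdh, the glycolytic enzyme gene, was at 49.8 and 46.7 FPKM in Ezh2 f/f and at 59.5 and 60.0 FPKM in Ezh2 cKO (log2 fold change 0.23 ± 0.09, adjusted p = 0.0297 in edgeR), while Actb changed by -0.46 ± 0.07. A level set against Actb therefore had a reference that was lower in both Ezh2 cKO libraries, and one set against Gapdh a reference that was higher in both. The Gapdh change was small, and its call was not examined under the alternatives.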
